A study of Rattus norvegicus with 3 samples.

Results

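Phase II conjugating enzymes make lipophilic drugs, hormones and lipid peroxidation products water-soluble by attaching a polar group to them. The 3 enzyme families described here were the glutathione S-transferases (gene names starting with Gst or Mgst), the UDP-glucuronosyltransferases (Ugt) and the cytosolic sulfotransferases (Sult). Members were all genes on the array whose probe set carried a single symbol of these families, and they numbered 47 of 14218 genes: 24 Gst and Mgst genes, 9 Ugt genes and 14 Sult genes. Where a gene had more than 1 probe set, the brightest on average was taken.

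Glutathione transferases join glutathione to electrophiles, including the aldehydes formed when membrane lipids are oxidised, and some of them reduce lipid hydroperoxides. Glucuronosyltransferases sit in the endoplasmic reticulum and transfer glucuronic acid from UDP-glucuronate, and sulfotransferases transfer sulfate from the cytosolic donor PAPS. In the kidney many of these enzymes, though not all, are found in the proximal tubule, whose cells also excrete the conjugates into urine.

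Expression was measured in kidneys of male Wistar rats weighing 370 to 508 g, in a model of organ donation after cardiac death in which all groups shared 20 min of warm ischaemia, cold storage in University of Wisconsin solution for 17 ± 0.7 h and reperfusion from the femoral artery of a recipient for 5 h 43 min ± 21 min. Recipients were infused with heparin at 100 U/ml/h, with peptide 2, derived from the part of the inflammatory chemokine CCL5 that binds heparin, at 0.5 mg/ml, or with saline at 1 ml/h as control. Each group had 7 recipients, but RNA of 3 kidneys per group was pooled and hybridised to 1 Affymetrix rat array, so there was 1 array per group. The 3 RNAs of a pool were the best of their group in quality, and no heparin was given as anticoagulant outside the heparin group. The labels give the treatments both as an infusion and as a bolus. No kidney without ischaemia and no kidney before reperfusion was among the samples used here. The study asked whether either agent had anti-inflammatory effects in the reperfused kidney.

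With 1 array per group no difference between arrays has a replicate check. No test was made, and a difference below is one between pooled RNAs, not a shown effect of a treatment. Values are GCRMA log2 expression values, in which a difference of 1 is 2-fold. A gene counted as measured if neither array of a comparison put it under that array's median over all probe sets, and these medians were 4.16 (heparin), 4.14 (peptide) and 4.14 (control). Levels are compared between arrays for 1 gene and never between genes, because probe sets differ in their response.

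The tissue label was set against marker genes. All 16 listed proximal tubule markers were measured, among them the phosphate transporter Slc34a1 at 14.09, 14.22 and 14.09 in heparin, peptide and control. Of 10 hepatocyte markers, 4 were measured in heparin against control, and Apoa1, Tat, Serpina1 and Cyp3a2 lay at the lowest value of the arrays, 2.18, on all 3. For beta-actin, probe sets at the 3′ and 5′ ends of the transcript, whose distance widens as RNA is degraded or incompletely copied, differed by 2.95 on the heparin array, 2.34 on the peptide array and 2.33 on the control array. For GAPDH the same distances were 0.32, 0.37 and 0.36. The part of RNA quality in the differences below was not tested. In pooled tissue RNA, fewer cells of a type and less RNA per cell cannot be told apart.

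Of the 47 members, 22 were measured on all 3 arrays and 25 were below the array median. The measured members were 14 of 24 Gst and Mgst genes, 2 of 9 Ugt genes and 6 of 14 Sult genes. Among the 25 others, 10 stayed within 0.01 of the lowest value on all 3 arrays. The filter fell clear of most of them: the highest value among the unmeasured members was 4.14, that of Gstcd in control, and the lowest among the measured members was 4.72, that of Gstm4 in control. There were 0 members for which only a bound on the difference could be given.

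Family by family, the measured members were Gsta1, Gsta3 and Gsta4 of the alpha class, Gstm2 and Gstm4 of the mu class, Gstp1, Gstt1, Gstt2, Gstt3, Gsto1, Gstk1, Gstz1, Mgst1, Mgst3, Ugt2b7, Ugt2b35, Sult1a1, Sult1b1, Sult1c2, Sult1c2a, Sult2b1 and Sult5a1. The alpha-class Gsta3l1, the mu-class Gstm1, Gstm3, Gstm5, Gstm6l and Gstm7, and Gstcd, Gsto2, Gstp3 and Mgst2 were not measured. Nor were Sult1c3, Sult1d1, the oestrogen sulfotransferase Sult1e1, the hydroxysteroid sulfotransferases Sult2a1, Sult2a2 and Sult2a6, Sult4a1 or Sult6b2. In the Ugt family Ugt2a1, Ugt2b, Ugt2b1, Ugt2b10, Ugt2b15, Ugt2b34l1 and Ugt8, which makes galactosylceramide, were not measured. A value below the median does not show that a transcript was absent.

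**Figure D1:**
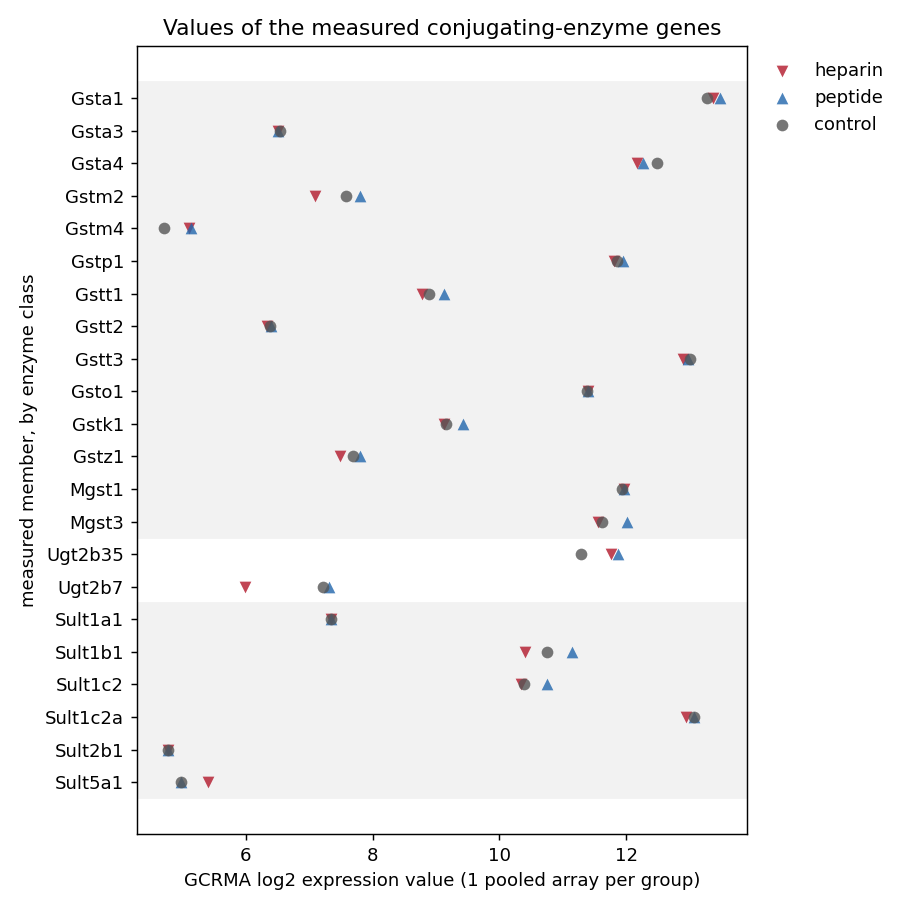
GCRMA log2 expression values of the 22 measured members (rows, by enzyme class) on the heparin, peptide and control arrays, 1 pooled array per group. Symbols are to be compared within a row: most rows differ by less than 0.5, while Ugt2b7 stands at 5.98 in heparin against 7.31 in peptide and 7.22 in control.

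The largest difference among the members was that of Ugt2b7, a glucuronosyltransferase whose human namesake conjugates morphine and other drugs. Ugt2b7 read 5.98 in heparin, 7.31 in peptide and 7.22 in control. The heparin value stood apart and the peptide and control values lay close together. The difference of heparin minus control was -1.23, a 2.35-fold lower value, and it was the 39th lowest of 9236 measured genes. Heparin minus peptide gave -1.32 (2.50-fold lower), the 32nd lowest of 9240 measured genes. Peptide minus control was 0.091. With 32 added to the unlogged values the differences of heparin from control and from peptide were -0.924 and -0.999, just short of 2-fold. Ugt2b7 was read by 1 probe set.

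Ugt2b35, the other measured glucuronosyltransferase, read 11.76 in heparin, 11.87 in peptide and 11.29 in control. Both treated pools were thus above control, by 0.47 (1.38-fold) in heparin and 0.58 (1.495-fold) in peptide. The peptide difference was the highest among the members in that comparison and the 202nd highest of 9268 measured genes. It lay just under the 1.5-fold line.

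In the RefSeq gene table of the rat assembly GRCr8, Ugt2b35 and Ugt2b7 are adjacent protein-coding genes on chromosome 14, in a row of Ugt2 genes next to the sulfotransferases Sult1e1, Sult1d1 and Sult1b1. The 250 bases before the annotated start of these 2 genes are shown because the neighbours differed in opposite directions in heparin against control and hold a run of letters in common. The sequences are from RefSeq on GRCr8, both on the plus strand, at chr14:21251285-21251534 for Ugt2b7 and chr14:21208191-21208440 for Ugt2b35. Capitals mark the longest run of letters that both hold.
Ugt2b7: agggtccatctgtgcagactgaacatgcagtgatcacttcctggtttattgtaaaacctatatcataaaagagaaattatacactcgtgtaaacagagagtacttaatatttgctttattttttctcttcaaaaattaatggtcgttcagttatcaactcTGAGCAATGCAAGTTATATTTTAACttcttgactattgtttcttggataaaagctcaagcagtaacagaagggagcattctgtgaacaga
Ugt2b35: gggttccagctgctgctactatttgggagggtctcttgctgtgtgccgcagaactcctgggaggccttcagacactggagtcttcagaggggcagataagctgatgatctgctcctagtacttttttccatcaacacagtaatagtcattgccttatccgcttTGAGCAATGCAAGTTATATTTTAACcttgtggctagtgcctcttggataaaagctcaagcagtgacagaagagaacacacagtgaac

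The shared run is 25 bases long and ends 65 bases before the start of Ugt2b7 and 62 bases before that of Ugt2b35. Of 33469 rat promoters of the same length, 7 held it on either strand: those of Ugt2b, Ugt2b7, Ugt2b7l1, Ugt2b15, Ugt2b35, Ugt2b37 and LOC134478834, which lies between Ugt2a1 and Ugt2b. Of the 4 members with the run, Ugt2b and Ugt2b15 were not measured. The match describes the sequence and says nothing of a factor that binds there. Genes as alike as these can also share probe binding, and how far each probe set reads its neighbours was not tested.

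The glucuronosyltransferase genes of the Ugt1a locus share their downstream exons, so a probe set at the 3′ end cannot name a single one. In all, 4 probe sets with several symbols matched the families and were left out of the members. Of these, 2 carried 8 Ugt1a symbols each. One read 10.37 in heparin, 11.68 in peptide and 11.31 in control, a difference of -0.94 for heparin minus control and -1.31 for heparin minus peptide. The other read 12.12, 12.19 and 12.17, with differences of -0.047 and -0.064. The probe sets thus differed in size for the same annotated genes, and no gene is named from either. The probe set for a pair of alpha-class Gst genes read 12.81 in heparin, 13.16 in peptide and 13.11 in control, and the one shared by a Sult1 gene and another gene read 8.41, 8.68 and 8.72.

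Among the sulfotransferases, Sult1b1, which acts on phenols and thyroid hormones, read 10.41 in heparin, 11.14 in peptide and 10.75 in control. Heparin was lowest and peptide highest, and heparin minus peptide was -0.73 (1.66-fold lower), the 225th lowest of 9240 genes. Sult1b1 was read by 1 probe set, as were Gstm2 and Ugt2b35. Against control the differences were -0.34 in heparin and 0.39 in peptide. Sult1c2 had the same order, with 10.34 in heparin, 10.76 in peptide and 10.39 in control. Heparin minus control was -0.047, and the peptide value was 1.29-fold above control.

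Sult1c2a read 12.94 in heparin, 13.06 in peptide and 13.07 in control. Sult5a1 was the one measured member clearly higher in heparin than on both other arrays, at 5.40 in heparin against 4.98 in both peptide and control, a difference of 0.43. That difference was 0.23 with 32 added to the unlogged values, and the gene was not measured with the filter at the 60th percentile. Sult1a1, a phenol sulfotransferase, had the identical value of 7.35 on all 3 arrays, and Sult2b1, which sulfates cholesterol and pregnenolone, the identical value of 4.78. Identical values were common on these arrays and do not show equal amounts of transcript.

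The glutathione transferases were the largest family. Of the 14 measured Gst and Mgst genes, 0 were 2-fold apart in any comparison. Such differences were rare among all measured genes too, so this count does not set the family apart. In heparin minus control 1.06% of all genes were at least 2-fold higher and 0.747% lower. The shares were 0.723% and 0.119% in peptide minus control, and 0.281% and 0.844% in heparin minus peptide. Differences of the 14 genes ran from -0.49 to 0.39 in heparin minus control and from -0.21 to 0.42 in peptide minus control. In heparin minus peptide they ran from -0.72 to 0.013. The family medians were -0.048, 0.11 and -0.10.

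In the mu class, Gstm2 read 7.09 in heparin, 7.81 in peptide and 7.58 in control, with heparin lowest, and heparin minus peptide was -0.72 (1.65-fold lower), the 240th lowest of 9240 genes. Gstm4 read 5.11 in heparin, 5.14 in peptide and 4.72 in control, so that both treated pools were above control, by 0.39 and 0.42. With 32 added to the unlogged values these differences were 0.19 and 0.20, and Gstm4 was not measured with the filter at the 60th percentile. The mu genes Gstm2, Gstm1 and Gstm4 lie next to each other on chromosome 2, and Gstm1 between the other two was not measured.

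In the alpha class Gsta4, which conjugates hydroxynonenal from lipid peroxidation, read 12.17 in heparin, 12.27 in peptide and 12.48 in control. Both treated pools were below control, by differences of -0.32 and -0.21. Gsta1, which also reduces lipid hydroperoxides, read 13.37 in heparin, 13.47 in peptide and 13.26 in control, both treated pools being slightly above control. Gsta3 read 6.51 in both treated pools and 6.54 in control.

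In the remaining classes the peptide array was mostly the high one. The microsomal Mgst3, a membrane enzyme with peroxidase activity, read 11.56 in heparin, 12.01 in peptide and 11.61 in control, 0.40 higher in peptide than in control. Mgst1, a microsomal enzyme activated by thiol-reactive compounds, spanned 0.043 over the arrays. Gstk1, the kappa enzyme of mitochondria and peroxisomes, read 9.12 in heparin, 9.43 in peptide and 9.16 in control. For both genes heparin and control lay close together. Gstz1, the maleylacetoacetate isomerase of tyrosine breakdown, read 7.49 in heparin, 7.80 in peptide and 7.68 in control.

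The theta gene Gstt1 read 8.78 in heparin, 9.13 in peptide and 8.89 in control, again with peptide highest. Its relatives Gstt2 and Gstt3 differed by no more than 0.115 between any 2 arrays. Gstp1, the pi enzyme, read 11.80 in heparin, 11.95 in peptide and 11.85 in control. Gsto1, which reduces dehydroascorbate, differed by 0.0099 between both treated pools, which were identical, and control.

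**Figure D2:**
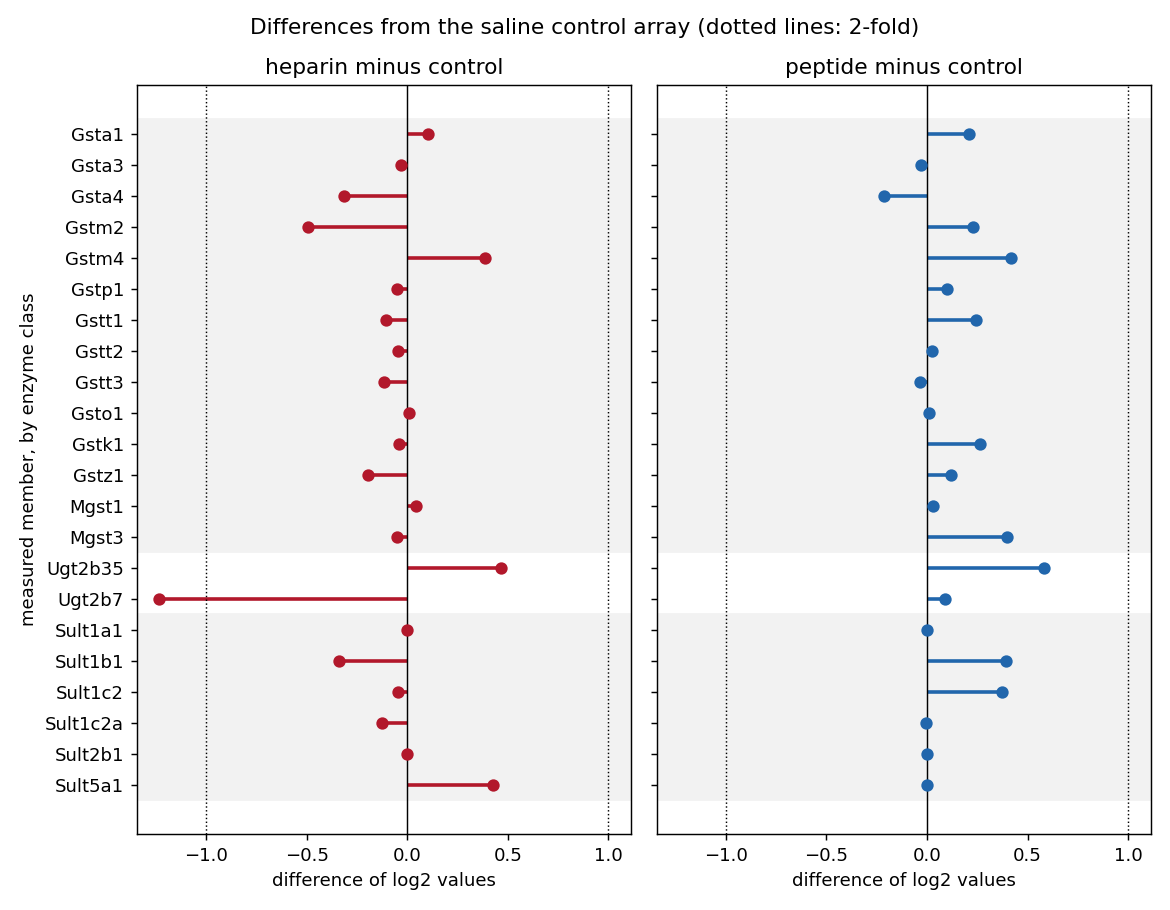
Differences of log2 values from the saline control array for the 22 measured members, heparin minus control on the left and peptide minus control on the right, each from 1 pair of pooled arrays; dotted lines mark 2-fold. Ugt2b7 passes the line at -1.23 in heparin, and no member passes it in peptide, where the highest is Ugt2b35 at 0.58.

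As a set, the members in heparin against control had a median difference near 0. Of 22 measured members 1 was at least 2-fold lower, Ugt2b7, where 0.747% of all 9236 measured genes were, and 0 were at least 2-fold higher, against 1.06% of all. At 1.5-fold the counts were 1 lower and 0 higher, against 3.37% and 3.04% of all genes. By any amount 14 members were lower (44.2% of all genes), 6 higher (25.8%) and 2 identical (30.1%). After quantile normalization, or with each array centred on the median of its measured genes, 12 members were lower and 10 higher. Both settings moved the identical members off 0. The shares of all genes given here are for the values as deposited and do not apply to these splits. The median member difference was -0.047, beside 0.00 over all measured genes.

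In peptide against control the members leaned upward by small amounts. Of 22 measured members 0 were at least 2-fold higher (0.723% of 9268 genes) and 0 at least 2-fold lower (0.119%), and the same held at 1.5-fold, where 2.11% of all genes were higher and 0.917% lower. By any amount 15 members were higher (32% of all genes), 4 lower (28.5%) and 3 identical (39.5%). The split was 15 higher and 7 lower after quantile normalization, and 14 and 8 with centred arrays. The identical members moved off 0 there, and the shares of all genes do not apply to these splits. The median was 0.096, against 0.00 over all measured genes, and the upper quartile was 0.26 for the members and 0.048 for all genes.

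In heparin against peptide 16 of 22 members were lower in heparin (43.7% of 9240 genes), 2 were higher (26.8%) and 4 identical (29.5%). The split was 16 lower and 6 higher after quantile normalization, and 15 and 7 with centred arrays. Here too the identical members moved off 0, and the shares of all genes are for the values as deposited. Ugt2b7 was the 1 member at least 2-fold lower (0.844% of all genes), and 0 were at least 2-fold higher (0.281%). With Sult1b1 and Gstm2, 3 were at least 1.5-fold lower (4.57% of all genes), and 0 were 1.5-fold higher (1.62%). The median was -0.11, beside 0.00 over all measured genes. The 3 comparisons share arrays in pairs, so they are not separate evidence.

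Seen over the 3 arrays, heparin gave the lowest value of 13 of 22 members, where it did so for 35.1% of 9231 genes measured on all arrays. The peptide array gave the highest value of 13 members, against 23.5% of all genes, and the lowest of 0, against 13.9%. Heparin was highest for 2 members, Sult5a1 and Mgst1, against 19.1% of all genes. The full order of heparin below control and control below peptide held for 10 members (14.9% of all genes): Gstk1, Gstm2, Gstp1, Gstt1, Gstt2, Gstz1, Mgst3, Sult1b1, Sult1c2 and Ugt2b7. For 5 members both treated pools were above control (12.7% of all genes), and for Gsta3, Gsta4, Gstt3 and Sult1c2a both were below it (19.2%). These counts describe 3 pooled arrays, and many of the differences behind them are small. Identical values were also less common among the members than among all genes, which leaves more members with a strict order.

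**Figure D3:**
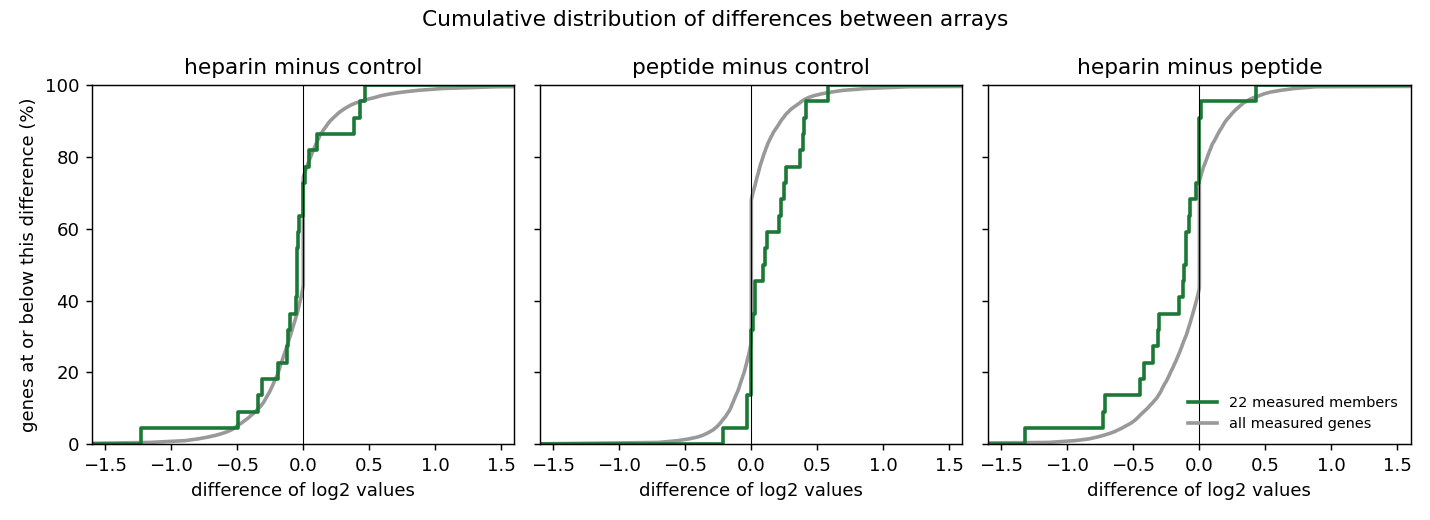
Cumulative percentage of genes at or below each difference of log2 values, for the 22 measured members and for all measured genes (9236, 9268 and 9240 in the panels from left to right). In heparin minus control the quartiles of the members (-0.12 and 0.0075) lie near those of all genes (-0.14 and 0.0058). Just below 0 the member curve there runs above that of all genes, as 63.6% of members and 44.2% of all genes were lower by any amount. Fewer members (9.09%) than genes in all (30.1%) had identical values, and 27.3% of members and 25.8% of all genes were higher. The member curve runs to the right of that of all genes above 0 in peptide minus control (member median 0.096). It runs to the left below 0 in heparin minus peptide (member median -0.11).

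Markers of the proximal tubule, in which many but not all of these enzymes are found, were set beside this. Of the 16 proximal tubule markers 11 were lower in heparin than in peptide (43.7% of all genes), 3 higher (26.8%) and 2 identical (29.5%). Their median was -0.057, and their mean values were 11.92 in heparin, 12.03 in peptide and 11.94 in control. In heparin minus control 9 were higher (25.8% of all genes), 6 lower (44.2%) and 1 identical (30.1%), with a median of 0.053. These differences ran from -0.82, for the lactate transporter Slc5a12, to 0.46, for the dipeptidase Dpep1.

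Markers of other cell types were read in the same way. Those of the loop of Henle and distal tubule, of which 6 of 7 on the array were measured, averaged 10.77 in heparin, 11.41 in peptide and 11.45 in control. Calb1, a calcium-binding protein of the distal tubule, read 9.18 in heparin, 10.79 in peptide and 11.01 in control, and Klk1, tissue kallikrein, read 8.43, 10.92 and 10.12. These were the 2 markers of that list at least 2-fold lower in heparin than in control (0.747% of all genes), and they weigh heavily in its mean. Of the 6, 5 were lower in heparin than in control (44.2% of all genes) and 1 higher (25.8%), with a median of -0.30. Kcnj1 read 9.76 in heparin, 9.37 in peptide and 10.02 in control, so that peptide and not heparin was lowest. Slc12a3 read 9.82, 9.99 and 10.16. Umod, the 1 marker of the list higher in heparin than in control, read 15.02, 14.88 and 14.85. Against peptide 4 of the 6 markers were lower in heparin (43.7% of all genes) and 2 higher (26.8%), with a median of -0.14. The hepatocyte list held 1 gene at least 2-fold higher, Cyp2c11, a male-specific cytochrome in rat liver, at 6.73 in heparin, 7.48 in peptide and 4.58 in control. Of all genes 1.06% were at least 2-fold higher in heparin than in control, and 0.723% in peptide. The other measured genes of the hepatocyte list were not higher in heparin than in control. Fgb, a fibrinogen chain, read 6.56 in heparin, 5.81 in peptide and 6.76 in control, and the apolipoprotein gene Apoc3 read 7.10, 7.71 and 7.49. Albumin, Alb, read 4.94 in both heparin and control and 2.77 in peptide. The list median in heparin minus control was -0.10. Marker means were 8.79, 8.77 and 8.63 for the collecting duct, 9.21, 9.19 and 9.12 for leukocytes and 8.78, 8.49 and 8.58 for endothelium, each in the order heparin, peptide and control. The part of cell content in the member differences was not tested.

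Genes that supply or follow the conjugation reactions were read from lists of 9 to 23 names. Glutathione synthesis and recycling had 8 measured genes with a median of -0.077 in heparin minus control. Of these 1 was at least 2-fold lower (0.747% of all genes): Gsr, the glutathione reductase, at 7.30 in heparin, 8.69 in peptide and 8.31 in control. The subunits of the enzyme that starts glutathione synthesis, Gclc and Gclm, differed from control by -0.066 and -0.30 in heparin and by 0.054 and -0.064 in peptide. Genes of mercapturate formation, which trim glutathione conjugates for urine, had 9 measured members and 0 at least 1.5-fold apart. The aminopeptidase Anpep was the farthest there, 0.56 higher in peptide than in control.

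Of 7 measured genes of UDP-glucuronate supply and glucuronide cleavage 0 were 1.5-fold apart in any comparison. Few of all measured genes were: 3.04% higher and 3.37% lower in heparin minus control, and 2.11% and 0.917% in peptide minus control. In heparin minus peptide these shares were 1.62% and 4.57%, so counts of 0 in short lists say little. Ugdh, which makes UDP-glucuronate, read 11.59 in heparin, 11.57 in peptide and 11.70 in control. In the sulfate list 0 of 10 measured genes were 1.5-fold apart in heparin minus control. The farthest was Arsb, at 8.66 in heparin, 9.18 in peptide and 9.13 in control, a difference of -0.47 from control in heparin. The PAPS synthase Papss1 read 8.66 in heparin, 9.04 in peptide and 8.74 in control. In peptide minus control 8 of 11 measured genes of that list were higher, 0 lower and 3 identical, with a median of 0.055, where 32% of all 9268 measured genes were higher, 28.5% lower and 39.5% identical.

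Other conjugating and detoxifying enzymes held the largest differences around the members. The methyltransferase Inmt read 6.78 in heparin, 9.06 in peptide and 8.13 in control, and the microsomal epoxide hydrolase Ephx1 10.38, 11.25 and 11.54. Both were thus at least 2-fold lower in heparin than in control, as were 0.747% of all measured genes. They were the 2 of 12 measured genes in this list that were, and the list median was -0.087. In peptide minus control Inmt was 0.93 higher and the median was 0.019. The quinone reductase Nqo1 differed from control by -0.074 in heparin and 0.018 in peptide.

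In a mixed list of drug and conjugate transporters, which also held uptake carriers, Abcb1a, the drug efflux pump P-glycoprotein, read 7.41 in heparin, 8.43 in peptide and 8.30 in control. It was the 1 of 9 measured genes at least 1.5-fold lower in heparin than in control, where 3.37% of all genes were. Abcc2, the canalicular and brush-border conjugate pump, read 7.77 in heparin, 8.31 in peptide and 8.10 in control, and Abcg2 9.99, 10.05 and 10.04. Slc22a6 went the other way, at 12.19 in heparin, 12.16 in peptide and 11.85 in control. In heparin minus control 5 genes of the list were lower (44.2% of all genes), 2 higher (25.8%) and 2 identical (30.1%), with a median of -0.056.

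The regulators of conjugating enzyme genes were lower in heparin than in peptide for 9 of 11 measured genes, with a median of -0.34, where 43.7% of all 9240 measured genes were lower and the median was 0.00. Cebpb read 10.54 in heparin, 11.57 in peptide and 10.92 in control, and the small Maf protein Maff, a partner of Nrf2, read 9.15, 10.06 and 9.77. Nfe2l2, the gene of Nrf2 itself, differed from control by 0.019 in heparin and 0.074 in peptide, and its inhibitor Keap1 by 0.0086 in heparin. The liver and proximal tubule factor Hnf4a was 0.33 higher in heparin and 0.034 higher in peptide than in control. The receptors Ahr, Nr1i2 and Nr1i3, which respond to foreign compounds, were below the array median on all 3 arrays.

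**Figure D4:**
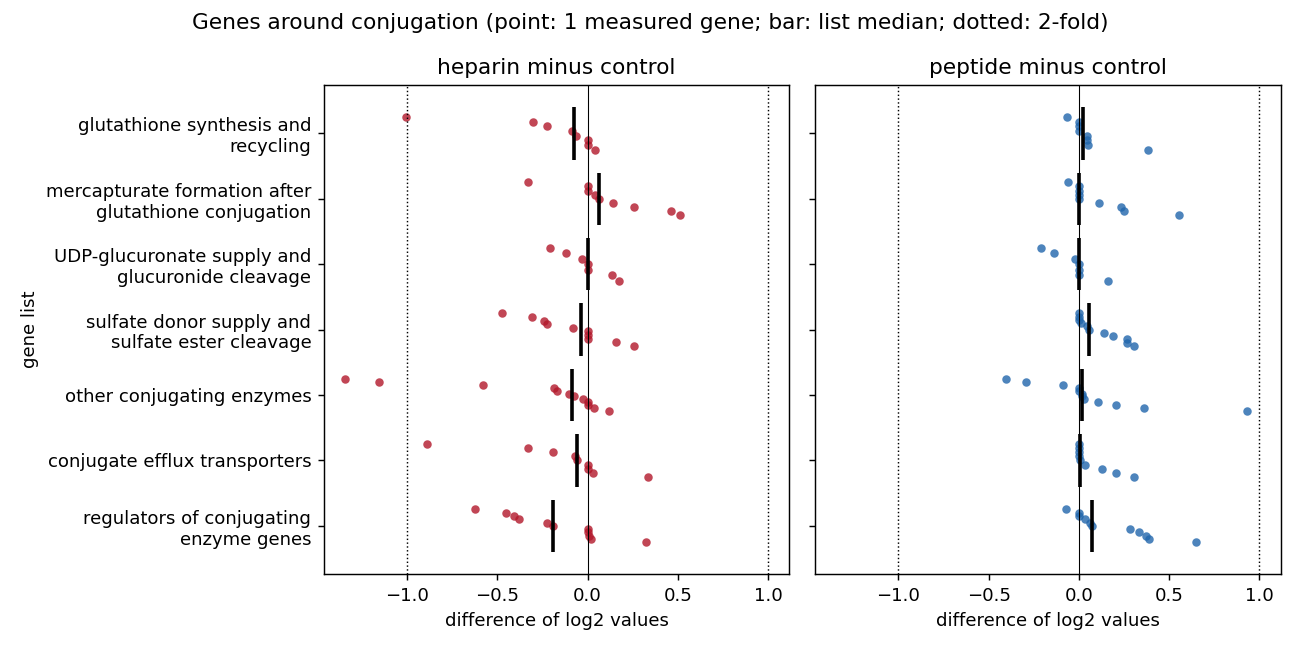
Differences of log2 values from control for the measured genes of 7 lists around conjugation, heparin on the left and peptide on the right; each point is 1 gene, the bar is the list median and dotted lines mark 2-fold. Inmt, Ephx1 and Gsr pass the line in heparin at -1.34, -1.16 and -1.01, and no gene passes it in peptide.

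Short motifs of known response elements were searched in the 250 bases before the start. RefSeq gave a promoter for 44 of 47 members, 21 of them measured. The antioxidant response element core, TGACNNNGC on either strand, was found for 3 of the 21 (Gsta3, Gstp1 and Gstz1), against 10.1% of 33469 promoters. The xenobiotic response element core GCGTG was found for 6 of the 21, against 25.9%, and the interferon-stimulated response element core for 0, against 3.41%. Overlaps between motifs were allowed. Ugt2b7, Ugt2b35, Sult1b1 and Gstm2 held none of these letters in this window, which says nothing of elements elsewhere.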

How the data were processed

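Per the labels, total RNA of 3 kidneys per group was pooled in equal amounts, and biotin-labelled cRNA from 6 µg was hybridised. The authors deposited 1 log2 value for each probe set and array, and the submitters' processing notes name GCRMA. How it was set, and how arrays were normalized to each other, is not stated in the labels or file headers. Values were used as deposited. Of 31099 probe sets, 20832 had 1 symbol in the platform annotation and stood for 14218 genes. Gene IDs of 46 of 47 members were found in the RefSeq table of GRCr8, with the same symbol.

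Log2 values of one array were subtracted from another's with Python 3.11.15, pandas 2.3.3 and numpy 2.4.6, and figures drawn with matplotlib 3.10.9. The counting of genes past 2-fold was tested on simulated data. Arrays have no read depth, and their number limits the precision. Samples were grouped by the treatment label. The members, lists, motifs and thresholds were chosen with earlier results of these data known. Every measured member could be named, and members at least 1.5-fold apart were described singly with all their probe sets. From each list up to 4 measured genes with the largest difference from control were eligible, as were Nfe2l2, Keap1, Ahr, Nr1i2, Nr1i3 and Hnf4a, and 1 item of that rule is not reported here. Slc34a1, Gclc, Ugdh, Abcg2, Nqo1, Umod and the hepatocyte markers at the lowest value fall outside this rule and were named after their values were seen. Other filters, normalizations, probe set choices and an offset were tried.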

Additional observations from a re-analysis of the deposited data

How the results depend on the processing

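No paired analysis was possible because each group had 1 array. A filter only drops genes, and 20 of the 22 measured members had 1 probe set. For most members only quantile normalization, centring and the offset could therefore change a difference. Of 519 differences of single members recomputed under 8 other settings, all 519 kept within 1.5-fold of the value given, many of them because the setting could not move them. No difference of at least 1.5-fold changed sign. Smaller ones did for Gsta3, Gstk1 and Gstt2 in heparin minus control, Gsto1 in peptide minus control and Gstm4 in heparin minus peptide, all within 0.054 of 0. The 2-fold counts stayed at 1, 0 and 1 (heparin minus control, peptide minus control, heparin minus peptide) under most settings. With 32 added to the unlogged values the count was 0 in both comparisons of heparin, and at 1.5-fold it was 3 in heparin minus peptide. The median member difference in heparin minus control was 0.00 without a filter, -0.010 after quantile normalization and -0.0064 with centred arrays. In peptide minus control it was 0.018 with the filter at the 40th percentile and 0.00 without a filter. In heparin minus peptide it was 0.00 without a filter and -0.052 with centred arrays.

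Counts by any amount were recomputed after seeing the data. Members higher in heparin than in control numbered 13 of 47 without a filter and 10 of 22 after quantile normalization or centring. Members lower in peptide than in control numbered 7 after quantile normalization and 8 with centring. Members higher in heparin than in peptide numbered 1 with the filter at the 60th percentile, 9 without a filter, 6 after quantile normalization and 7 with centring. Heparin was lowest for 12 to 14 members and peptide highest for 12 to 15 under the settings tried, which did not include the lowest probe set. No share of all genes under the same setting stands beside these counts, so they cannot be read against a background. With 1 array per group none of these settings stands in for a replicate, and values near the array median leave little room above background.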

Other observations

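A few genes below the array median on at least 1 array were not equal over the arrays, and those named here were chosen after their values were seen. Ugt2b1, a glucuronosyltransferase gene close to Ugt2b7, read 2.92 in heparin against 2.26 in peptide and in control. Ugt2b15 read 2.52 in peptide against 2.20 in heparin and in control. Sult1e1, the oestrogen sulfotransferase, read 2.36 in heparin and 2.18 on both other arrays. The values of these 3 genes lie under the median of their array, so no fold is given.

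Slc7a11, the cystine importer that feeds glutathione synthesis, read 4.67 in heparin, above the array median, against 3.80 in both peptide and control, below it. Sts, the steroid sulfatase that removes sulfate from steroid sulfates, read 4.14 in heparin, 4.79 in peptide and 4.52 in control, and its heparin value was just under that array's median. Abcc3, a basolateral exporter of glucuronides, read 3.52 in heparin, 4.40 in peptide and 3.83 in control.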
